A study of Mus musculus with 3 samples.

Results

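The 10 genes described here are immediate early genes: *Fos*, *Fosb*, *Jun*, *Junb*, *Egr1*, *Ier2*, *Ier3*, *Atf3*, *Dusp1* and *Zfp36*. They were chosen by name and are 10 of the 23421 gene symbols in the table. Their mRNAs were measured by RNA-seq in 3 libraries from E6.5 mouse embryos of strain 129/SvEv, 1 library for each genotype, all from matings of tw18/+ mice. The strain is that of the labels, and the paper proposes that non-inbred backgrounds may underlie the variable phenotype of its mutants. In its in situ hybridizations of E6.5 litters it describes the mutant embryos as slightly younger. Whether stage or background differed between the 3 libraries was not tested. The genotypes were wild type, tw18/+ with 1 copy of the t haplotype carrying the tw18 lethal, and tw18/tw18 with both copies. The labels call the tissue epiblast, while the study's methods describe the embryo proper, which is epiblast together with the visceral endoderm around it. How many embryos entered a library is not stated. With 1 library per genotype no difference has a replicate check, and no p-value is given.

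Immediate early genes are transcribed within minutes of a stimulus without the need for new protein. Serum, growth factors such as FGF, or stress act through kinases of the MAPK pathways on factors already in the nucleus, chiefly SRF with its ELK partners and CREB, and the mRNAs are then degraded quickly. *Fos*, *Fosb*, *Jun* and *Junb* encode subunits of the AP-1 transcription factor, *Egr1* a zinc finger factor and *Atf3* a stress-induced member of the ATF family. *Dusp1* encodes a phosphatase that switches MAPKs off, and *Zfp36* encodes tristetraprolin, a protein that binds AU-rich elements of mRNAs and promotes their decay. Cutting and dissociating tissue also induces these genes.

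In the tw18/tw18 library *Zfp36*, *Junb* and *Fos* had 2.59, 2.45 and 2.16 times their wild-type values, and *Jun* had 1.91 times. *Ier2*, *Dusp1* and *Egr1* were within 1.13 times of wild type, and *Ier3* was lower, at 0.626 times. In the tw18/+ library 5 of the 10 genes had their lowest value, among them *Egr1*, *Jun* and *Junb* at 0.294, 0.564 and 0.692 times wild type, while *Fos*, *Fosb*, *Dusp1* and *Zfp36* lay between the other libraries. Of the 10 genes, 8 had their highest value in tw18/tw18, all except *Ier3* and *Atf3*. Among the 13118 genes of the table that reached an FPKM of 1 in any library, 41.0% were highest in tw18/tw18. *Fosb*, which is among the 8, did not reach that level. The lead of *Dusp1*, *Egr1* and *Ier2* over wild type was within counting error.

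Sequences are shown for the genes with the largest log2 ratios between tw18/tw18 and wild type. *Dusp1*, which did not differ between these 2 libraries beyond counting error, is shown so that both kinds can be compared. They are the 150 bases upstream of the annotated start on the gene's own strand, 5′ to 3′, from RefSeq for GRCm38.p6, on chr7:28379229-28379378 (minus strand) for *Zfp36*, chr12:85473740-85473889 (plus) for *Fos*, chr8:84978749-84978898 (minus) for *Junb* and chr17:26508473-26508622 (minus) for *Dusp1*. Capitals mark matches to the motifs searched, on either strand.
Zfp36: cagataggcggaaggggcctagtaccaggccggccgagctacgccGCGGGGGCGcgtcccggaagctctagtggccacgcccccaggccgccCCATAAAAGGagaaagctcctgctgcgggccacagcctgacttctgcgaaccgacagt
Fos: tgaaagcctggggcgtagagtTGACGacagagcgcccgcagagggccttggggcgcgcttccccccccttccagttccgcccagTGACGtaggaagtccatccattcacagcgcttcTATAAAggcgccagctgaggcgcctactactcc
Junb: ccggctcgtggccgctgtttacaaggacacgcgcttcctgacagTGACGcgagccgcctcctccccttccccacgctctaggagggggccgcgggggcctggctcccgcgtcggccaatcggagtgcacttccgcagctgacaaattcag
Dusp1: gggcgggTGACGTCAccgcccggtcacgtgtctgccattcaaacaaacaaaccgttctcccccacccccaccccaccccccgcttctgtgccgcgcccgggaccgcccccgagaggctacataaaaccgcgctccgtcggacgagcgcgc

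The motifs were looked for on both strands in the 250 bases before and 50 after each start, for the 8 members that have an entry among 32851 promoters. *Egr1* and *Ier2* have none. The CArG box, the binding sequence of SRF, was found in 1 of the 8, at -58 to -49 of *Zfp36*, and in 1.63% of all promoters. The cAMP response element TGACGTCA was found in 1 of 8, at -143 to -136 of *Dusp1*, and in 1.79% of all. Its shorter form TGACG, which is contained in it, occurred in 5 of 8 (*Fos*, *Fosb*, *Junb*, *Atf3* and *Dusp1*) against 20.8% of all promoters. The EGR motif GCGGGGGCG occurred in 2 of 8, in *Fosb* and at -105 to -97 of *Zfp36*, against 2.91%. TATAAA occurred in 2 of 8, at -33 to -28 of *Fos* and directly after the annotated start of *Junb*, against 13.6%. The AP-1 motif TGACTCA was in 0 of 8, against 5.20% of all promoters. A match is a run of letters and says nothing about binding, and a site outside the window is not counted. *Zfp36* and *Dusp1*, the members with the largest and the smallest log2 ratio in size between tw18/tw18 and wild type, each held a match that few promoters have.

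The mRNAs themselves share a feature of their 3′ UTRs, the AU-rich heptamer TATTTAT (written with T for U), the core of the elements that tristetraprolin binds. It occurred at least once in 7 of the 10 and at least 2 times in *Fos*, *Dusp1*, *Zfp36* and *Ier3*, with 2, 3, 3 and 4 occurrences. Among 5659 genes whose 3′ UTR was within the members' range of 485 to 2145 bases, 27.0% held 1 or more and 7.21% held 2 or more. The 30 bases with most heptamers are given for these 4 genes from GENCODE M21 transcripts on GRCm38, 5′ to 3′, with the heptamer in capitals. They start 571, 174, 644 and 92 bases after the stop codon in *Zfp36*, *Ier3*, *Fos* and *Dusp1*.
Zfp36: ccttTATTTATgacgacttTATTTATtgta
Ier3: ctaattaaTATTTATgTATTTATgtatatc
Fos: gtgttttcaattTATTTATtaagatggatt
Dusp1: ggagctggtcctTATTTATttaacaccccc

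The heptamer counts did not follow the differences between libraries. *Ier3*, with 4 heptamers, was lower in tw18/tw18 than in wild type, *Zfp36* with 3 was higher, *Dusp1* with 3 was nearly equal, and *Junb*, among the genes that were higher, has none. *Egr1* and *Ier2* also have none.

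**Figure D1:**
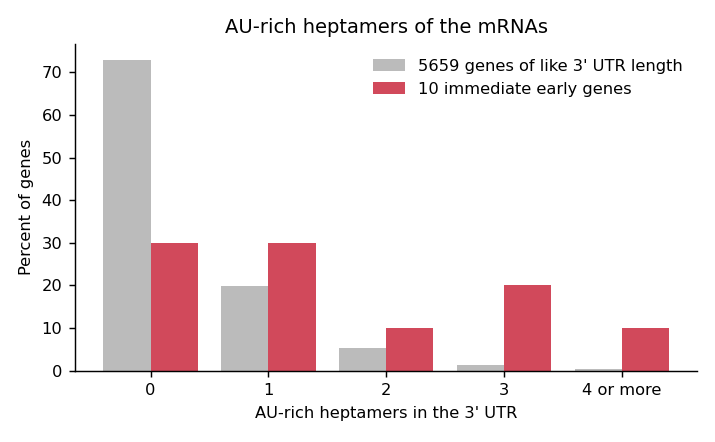
Percent of genes (vertical axis) by the number of AU-rich heptamers in the 3′ UTR (horizontal axis), for the 10 immediate early genes and for 5659 genes with a 3′ UTR of like length. Of the 10 genes 3 have no heptamer, while 73.0% of the comparison genes have none.

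The genes are also short. Their GENCODE transcripts span 1240 to 13045 bp with a median of 3286.5 bp, against a median of 21662 bp over 11925 coding genes reaching an FPKM of 1, and they have a median of 2.5 exons against 9. A span under 6000 bp was found for 8 of the 10 members, all except *Fosb* and *Atf3*, and for 16.0% of those genes.

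The 10 genes lie on 7 chromosomes in the RefSeq annotation of GRCm38.p6. *Dusp1* (chr17:26505591-26508472, minus strand) and *Ier3* (chr17:35821713-35822911, plus) are on the chromosome of the t haplotype, 5.54 and 14.9 Mb distal of the end of *Ppp2r1a*, a gene in the tw18 deletion. Both lie outside the deletion as the paper mapped it, distal of its far breakpoint. The AP-1 genes are *Fos* (chr12:85473890-85477274, plus), *Fosb* (chr7:19302696-19310118, minus), *Jun* (chr4:95049036-95052222, minus) and *Junb* (chr8:84976909-84978748, minus). The others are *Egr1* (chr18:34861207-34864956, plus), *Ier2* (chr8:84661331-84662852, minus), *Atf3* (chr1:191170296-191183333, minus) and *Zfp36* (chr7:28376784-28379228, minus). *Jun* overlaps the antisense gene *Junos* and *Zfp36* the antisense gene *Gm44710*, neither of which is a row of the table. The libraries are strand-specific by the labels, but the strand setting of the counting is not given in the sources used here, so reads of these antisense genes may be included.

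The values are FPKM, which scale the fragments of a gene by transcript length and library size, so that they allow levels of different genes to be compared per length. From the spacing of low values the depth of tw18/+ was estimated at 1.40 times and that of tw18/tw18 at 1.39 times that of wild type, where 1 fragment on a transcript of 1 kb was worth an FPKM of 0.0727. Fragment numbers and the 95% Clopper-Pearson intervals on ratios derive from these estimates and cover counting error only. *Ppp2r1a* had an FPKM of 146, 81.7 and 12.8 in wild type, tw18/+ and tw18/tw18. The order is that of the labels, but about 550 fragments, 0.0872 times the wild-type level, remained in tw18/tw18, where a library made only from embryos without the gene would have none. The source of these fragments was not tested, and tw18/tw18 stands throughout for the library with that label. *Lars2*, the gene with the highest FPKM in wild type (11199) and tw18/+ (9689), was listed at 0 in tw18/tw18, and an exact 0 can be a failed estimate. Over genes that reached an FPKM of 1 in each library the median log2 ratio of tw18/tw18 to wild type was -0.05. In bulk RNA a different number of cells of a type and a different amount of RNA per cell cannot be told apart.

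Of the 4 AP-1 members *Jun* and *Junb* had the highest levels. *Jun*, the chief partner of FOS in AP-1, had 5.23 FPKM in wild type, 2.95 in tw18/+ and 9.97 in tw18/tw18, from about 229, 181 and 607 fragments. It was lowest in tw18/+ and highest in tw18/tw18. The log2 ratio to wild type was 0.93 (95% interval 0.71 to 1.16) in tw18/tw18 and -0.83 (-1.12 to -0.54) in tw18/+, both under a ratio of 1 in size. Between tw18/tw18 and tw18/+ it was 1.76 (1.52 to 2.01).

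*Junb*, which can replace or oppose JUN in AP-1, had 3.54 FPKM in wild type, 2.45 in tw18/+ and 8.67 in tw18/tw18. Its order across the libraries was that of *Jun*. The log2 ratio of tw18/tw18 was 1.29 (0.95 to 1.65) to wild type and 1.82 (1.47 to 2.18) to tw18/+, while tw18/+ was at -0.53 (-0.97 to -0.08) to wild type.

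*Fos* was lower than *Jun* in each library, with 1.66 FPKM in wild type, 1.73 in tw18/+ and 3.59 in tw18/tw18, from about 48, 71 and 145 fragments. Wild type and tw18/+ were nearly equal and tw18/tw18 stood above both. The log2 ratio of tw18/tw18 was 1.11 (0.64 to 1.62) to wild type and 1.05 (0.62 to 1.47) to tw18/+. *Jun* exceeded *Fos* per length 3.15 times in wild type, 1.70 times in tw18/+ and 2.78 times in tw18/tw18.

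*Fosb*, a FOS relative that is induced with it in many cells, was hardly detected. It was listed at 0 in wild type, where 3 fragments would give an FPKM of 0.0577, and had an FPKM of 0.0961 in tw18/+ and 0.207 in tw18/tw18. These values rest on about 7 and 15 fragments, and the log2 ratio between them, 1.11, has an interval from -0.27 to 2.65. A difference of *Fosb* was thus not detectable at this depth between the carriers of tw18.

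*Egr1*, a target of ERK signalling in many cells, had 3.28 FPKM in wild type, 0.962 in tw18/+ and 3.62 in tw18/tw18, from about 137, 56 and 210 fragments. The tw18/+ library stood apart here, and the other 2 differed by less than the counting error. The log2 ratio of tw18/+ to wild type was -1.77 (-2.26 to -1.32) and that of tw18/tw18 to tw18/+ was 1.91 (1.49 to 2.37). Between tw18/tw18 and wild type it was 0.14 (-0.18 to 0.46).

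*Atf3* was listed at 0 in wild type, where 3 fragments would give an FPKM of 0.110, and had an FPKM of 0.525 in tw18/+ and 0.501 in tw18/tw18. It rests on about 20 and 19 fragments. The log2 ratio of tw18/tw18 to tw18/+ was -0.07 (-1.05 to 0.92), and no fold change against wild type is given for *Atf3* or *Fosb*.

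Among the genes that do not encode DNA-binding factors, *Zfp36* had the largest difference of all members between tw18/tw18 and wild type. It had 10.3 FPKM in wild type, 12.0 in tw18/+ and 26.8 in tw18/tw18, from about 251, 407 and 905 fragments. The first 2 libraries were close to each other, and tw18/tw18 was above both. The log2 ratio of tw18/tw18 was 1.38 (1.17 to 1.58) to wild type and 1.17 (0.996 to 1.34) to tw18/+, and that of tw18/+ to wild type was 0.21 (-0.02 to 0.44). Among the 13118 expressed genes *Zfp36* moved from percentile 54.3 in wild type and 58.1 in tw18/+ to 79.0 in tw18/tw18.

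*Dusp1* was steady across the libraries, with 10.2 FPKM in wild type, 10.9 in tw18/+ and 11.2 in tw18/tw18. The log2 ratio of tw18/tw18 was 0.14 (-0.09 to 0.36) to wild type and 0.04 (-0.16 to 0.24) to tw18/+. *Ier2*, a nuclear protein gene with a single exon, stood at 17.4, 15.9 and 19.7 FPKM in wild type, tw18/+ and tw18/tw18. It was slightly higher in tw18/tw18 than in tw18/+, with a log2 ratio of 0.31 (0.12 to 0.48), and at 0.18 (-0.02 to 0.37) to wild type.

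*Ier3*, which acts in cell survival and ERK signalling, was the member with its highest value in wild type. Its FPKM was 7.64 in wild type, 4.57 in tw18/+ and 4.78 in tw18/tw18. Both libraries with tw18 were lower and did not differ from each other beyond counting error. The log2 ratio to wild type was -0.74 (-1.16 to -0.35) in tw18/+ and -0.68 (-1.08 to -0.28) in tw18/tw18.

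**Figure D2:**
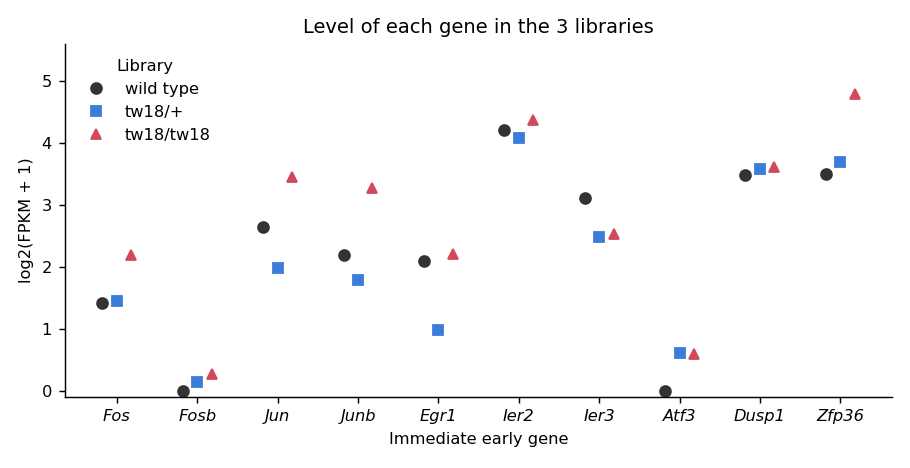
Level of each of the 10 immediate early genes (horizontal axis) as log2(FPKM + 1) (vertical axis), with a point for each library and no error bar since each genotype has 1 library. The tw18/tw18 library is highest for 8 of the 10 genes, and *Fosb* and *Atf3* are listed at 0 in wild type.

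By level in wild type the order was *Ier2*, *Zfp36*, *Dusp1*, *Ier3*, *Jun*, *Junb*, *Egr1* and *Fos*, with *Fosb* and *Atf3* listed at 0. *Zfp36* and *Dusp1* were nearly equal there, as were *Junb* and *Egr1*. In tw18/tw18 *Zfp36* was first and *Ier2* second, and *Jun* and *Junb* had passed *Ier3*. The FPKM of all 10 genes summed to 59.3 in wild type, 52.1 in tw18/+ and 89.0 in tw18/tw18, and *Zfp36* with *Ier2* made up 46.8%, 53.5% and 52.2% of these sums. The median gene of those reaching an FPKM of 1 in any library was at 8.78, 8.68 and 9.51, so that in wild type *Ier2*, *Zfp36* and *Dusp1* lay above the median gene and the other members below it.

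A gene was called different between a pair of libraries where the higher value was an FPKM of at least 1 and the log2 ratio was at least 1 in size. Of the 10 members 8 reached this level, and *Fosb* and *Atf3* did not. Between tw18/tw18 and wild type 3 of the 8 were higher (*Fos*, *Junb* and *Zfp36*) and 0 lower, where 15.1% of 12917 genes were higher and 6.94% lower. Among genes with a mean FPKM in the members' range of 2.33 to 17.7, 12.9% were higher. The median difference of log2(FPKM + 1) was 0.43 over the 10 members and -0.01 over all genes that reached the level.

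Between tw18/+ and wild type 0 members were higher and 1 was lower (*Egr1*), against 4.70% of 12426 genes higher and 5.02% lower. The median difference was -0.04 over the 10 members and -0.26 over the 8 that reached the level, of which 5 were lower in tw18/+ by any amount. Between tw18/tw18 and tw18/+ 5 members were higher (*Fos*, *Jun*, *Junb*, *Egr1* and *Zfp36*) and 0 lower, against 14.9% of 12846 genes higher and 5.65% lower, and 13.1% higher among genes in the members' range of mean FPKM. The comparisons share libraries: a low value in tw18/+, as for *Egr1*, *Jun* and *Junb*, enters both comparisons with it.

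**Figure D3:**
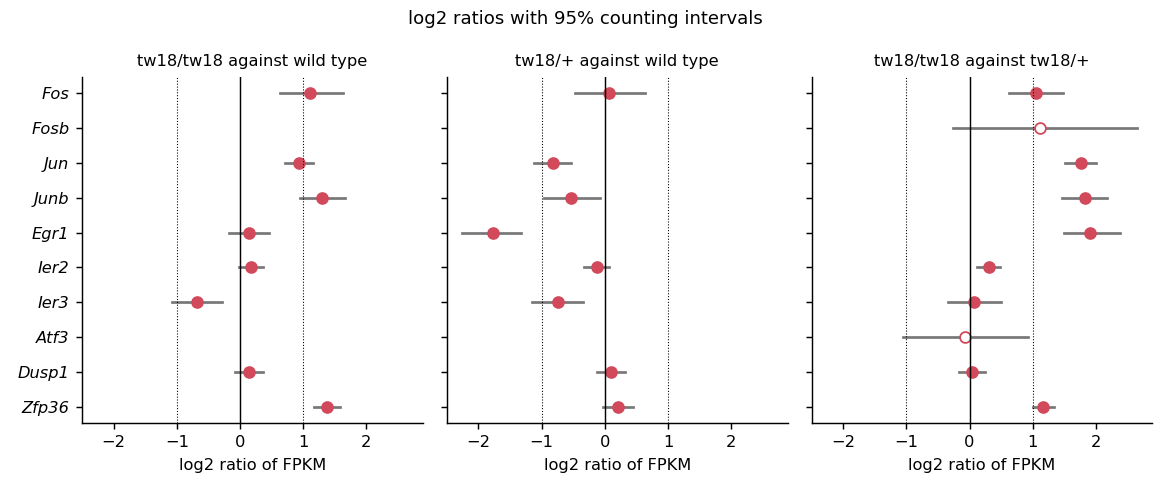
log2 ratio of FPKM (horizontal axis) of each immediate early gene (vertical axis) for the 3 pairs of libraries, with 95% counting intervals as lines, dotted lines at a log2 ratio of 1 in either direction and open points for genes under an FPKM of 1. *Egr1* is at -1.77 in tw18/+ against wild type, and 5 filled points lie beyond 1 in tw18/tw18 against tw18/+.

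Other immediate early genes were taken from 2 lists, 29 transcription factors and 43 effectors and inhibitors. Of these 72 genes, 61 reached an FPKM of 1 between tw18/tw18 and wild type. Of the 61, 25 were higher in tw18/tw18 and 0 lower, which is 41.0% against the 15.1% of all genes. The lists were chosen with earlier results of these data known, so this share is a description and not a test. No share among genes of like level was taken for them. Against tw18/+ 30 of 61 (49.2%) were higher and 0 lower, where 14.9% of all genes were higher and 5.65% lower. Higher against both were 21 genes, for which no share over all genes was taken. Between tw18/+ and wild type 3 of 58 (5.17%) were higher and 3 lower, near the 4.70% and 5.02% of all genes.

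Of the transcription factors 10 of 23 were higher in tw18/tw18 than in wild type, 43.5% against 15.1% of all genes. *Fosl2*, a further AP-1 subunit, had 5.66 FPKM in wild type, 5.29 in tw18/+ and 22.9 in tw18/tw18. *Btg2*, an inhibitor of proliferation, had 1.81, 2.61 and 10.2, *Nfil3*, a basic leucine zipper repressor, 5.02, 7.26 and 16.9, and *Klf2* 0.439, 0.857 and 2.93. At the other end *Myc* had 40.8, 46.8 and 33.1 and *Id3* 75.1, 85.8 and 60.6, neither past a log2 ratio of 1, and *Klf6* had 13.3, 13.3 and 12.9.

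Of the effectors and inhibitors 15 of 38 were higher, 39.5% against 15.1% of all genes. *Plk2*, a polo-like kinase, had 0.646 FPKM in wild type, 2.13 in tw18/+ and 13.8 in tw18/tw18. *Cdkn1a*, which encodes the cell cycle inhibitor p21, had 5.88, 7.11 and 27.3, *Rgs2*, a regulator of G protein signalling, 16.2, 18.5 and 57.4, and *Dusp5*, an ERK phosphatase related to *Dusp1*, 1.63, 1.48 and 6.01. *Zfp36l2* went the opposite way to its relative *Zfp36*, with 63.9, 50.4 and 32.4, and *Dusp6* the opposite way to *Dusp5*, with 36.9, 32.5 and 19.7. Both were just short of a log2 ratio of -1, at -0.98 and -0.90. *Areg*, *Cxcl1* and *Il6* were listed at 0 in all 3 libraries.

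The AP-1 and ATF family, a list that holds 5 of the members, had 8 of 18 genes higher and 1 lower in tw18/tw18 than in wild type. These are 44.4% and 5.56%, against 15.1% and 6.94% of all genes. Besides *Fos*, *Junb* and *Fosl2* the higher genes were *Fosl1*, *Atf7*, *Jdp2*, *Maf* and *Batf3*, and the lower was *Batf*, at an FPKM of 1.44, 0.344 and 0.577. *Jund*, the JUN gene that is expressed without a stimulus in many cells, had 6.74, 6.45 and 6.96. *Atf4*, the translation-controlled activator of *Atf3*, had 74.2, 53.2 and 48.9. Among the EGR, DUSP and ZFP36 relatives 2 of 18 were higher (*Zfp36* and *Dusp5*) and 0 lower. That is 11.1% higher, under the 15.1% of all genes.

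Of 27 factors and kinases that act on immediate early genes 3 were higher in tw18/tw18 than in wild type and 1 lower, which is 11.1% and 3.70% against 15.1% and 6.94% of all genes, with a median difference of -0.03. *Srf* had 13.5 FPKM in wild type, 15.4 in tw18/+ and 13.5 in tw18/tw18. The higher genes were *Rps6ka3* (6.65, 11.5 and 22.1), *Elk3* (2.02, 1.76 and 4.32) and *Rps6ka5* (2.25, 2.14 and 4.65). The lower gene was *Rps6ka2*, also a kinase of the RSK family, at 22.8, 10.6 and 3.68.

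A list of FGF ligands, the receptor gene *Fgfr1* and targets and feedback inhibitors of ERK signalling had 1 of 13 higher and 1 lower. Each is 7.69%, against 15.1% and 6.94% of all genes. The median difference was -0.54, with the opposite sign to that of the members. The list shares *Fgf4* and *Fgf5* with that of the epiblast markers, whose median difference was -0.78. Both called genes encode ligands: *Fgf8* was lower, at an FPKM of 27.6, 20.9 and 10.1, and *Fgf4* was higher, at 3.85, 3.92 and 7.76. *Spry2*, at 22.4, 17 and 12.1, and *Spred1*, at 13.0, 9.17 and 7.41, did not pass a log2 ratio of 1. Of the heat shock genes, which respond to stress by another route, 2 of 12 were higher (*Hspb1* and *Hspa1b*) with a median of -0.21. That is 16.7%, against 15.1% of all genes. By any amount 5 of the 12 were above wild type, among them *Dnajb1* and *Bag3*, each at a log2 ratio of 0.79. The 7 below it included the abundant *Hspa8*, *Hsp90aa1*, *Hspd1* and *Hspe1*. Of the housekeeping genes 1 of 14 (7.14%) was higher (*B2m*), with a median of -0.14.

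Many genes used here as markers of other tissues were also higher in the tw18/tw18 library. Some have another reading: the paper counts *Hand2*, *Eng*, *Hand1* and *Gata3* of these lists as mesoderm genes that were higher in the mutant. Which cells the mRNAs came from was not tested. Over all genes 15.1% were higher than in wild type and 6.94% lower. Of 16 decidua and stroma markers 14 were higher than in wild type and 1 lower, with a median difference of 1.94. The lower one, the decidual prolactin gene *Prl8a2*, had an FPKM of 1504, 155 and 377 in wild type, tw18/+ and tw18/tw18. The FPKM of all 16 therefore summed to 1658, 327 and 1095, highest in wild type, and that of the other 15 to 154, 172 and 718, highest in tw18/tw18. None of the 16 was listed at 0 in any library. Endothelial markers were higher in 6 of 10, summing to 47.7, 31.3 and 106.5 over the list of 11, with none at 0. Immune markers were higher in 3 of 6, summing to 23.7, 16.9 and 42.5 over the list of 13, with *C1qa*, *Gzma* and *Cd3e* at 0 in wild type, *Prf1* in tw18/+ and *Gzma* and *Cd3e* in tw18/tw18.

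Trophoblast and extra-embryonic ectoderm markers were higher in 8 of 12 and lower in 2 (*Eomes* and *Prl2c2*), summing to 292, 225 and 448. *Eomes*, at an FPKM of 77.1, 58.0 and 37.0, is counted in the paper as a mesoderm control gene that was lower in the mutant. Epiblast markers were lower in 5 of 12, with a median difference of -0.78. Of 15 visceral endoderm markers 2 were called higher than in wild type and 6 higher than in tw18/+. These are 13.3% and 40%, against 15.1% and 14.9% of all genes. By any amount 14 of the 15 were above wild type, with a median difference of 0.46, and their FPKM summed to 1293, 1258 and 1798. Epiblast markers stayed abundant, *Pou5f1* at an FPKM of 628, 721 and 274. The sums of the visceral endoderm, trophoblast, endothelial and immune markers were all lowest in tw18/+ and highest in tw18/tw18, an order also seen for *Jun*, *Junb*, *Egr1* and *Ier2*. Sums give abundant genes the most weight. *Csf1r* had 10.7, 4.02 and 8.06 in the immune list and *Prl3d1* 113, 61.5 and 202 in the trophoblast list. Counted by gene at an FPKM of 1, tw18/+ was below wild type in 11 of 15 visceral endoderm and 7 of 11 trophoblast markers. The same held for 7 of 9 endothelial and 3 of 6 immune markers. Other lists and members had other orders. The decidua and stroma sum was highest in wild type, and the epiblast sum was lowest in tw18/tw18. *Fos*, *Fosb*, *Dusp1* and *Zfp36* were lowest in wild type and highest in tw18/tw18, as was the decidua and stroma sum without *Prl8a2*. The part of these tissues in the values of the immediate early genes was not tested.

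**Figure D4:**
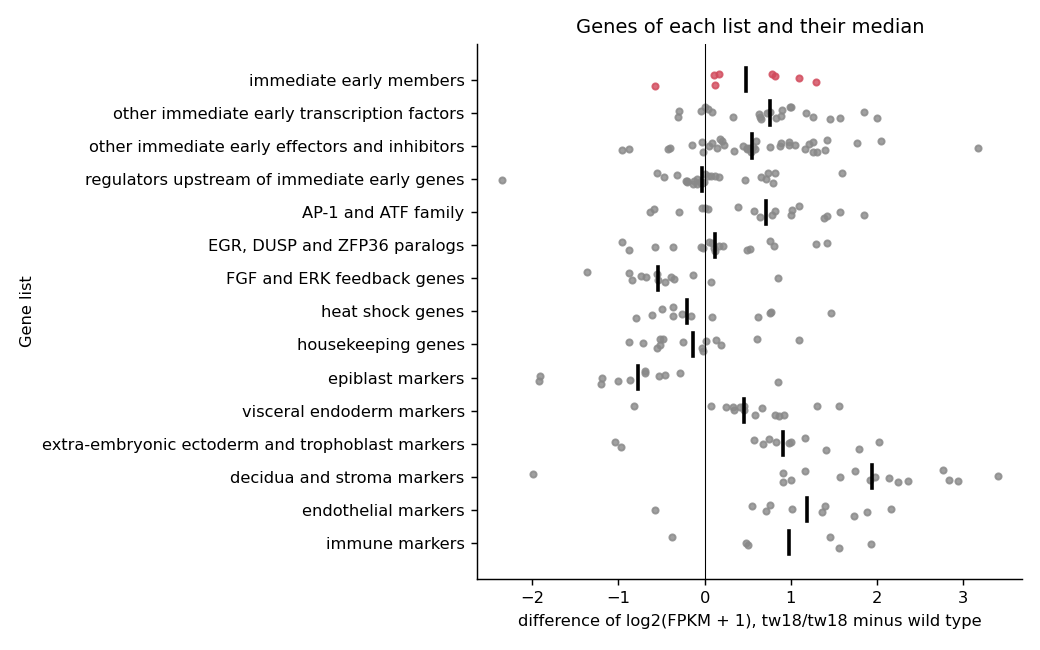
Difference of log2(FPKM + 1) between tw18/tw18 and wild type (horizontal axis) for the genes of each list that reach an FPKM of 1 (points) with the list median (bar), the 8 immediate early members in red; points are shifted vertically at random for sight only. The medians are 0.48 for these members, 0.75 and 0.55 for the other immediate early lists, -0.03 for the upstream regulators, -0.54 for the FGF and ERK list and 1.94 for decidua and stroma.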

How the data were processed

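RNA of 1 library per genotype was converted with the TotalScript kit and random hexamers and read from both ends for 50 bp. Mapping by the authors was done with TopHat on the GRCm38 genome (mm10), and the deposited table holds FPKM from Cuffdiff. The processing notes name TopHat2 2, Bowtie 1.0.0 and Cufflinks 2.2.1, and the gene annotation and library normalization are not given in the sources used here.

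The analysis used scipy 1.17.1, pandas 2.3.3 and numpy 2.4.6 in Python 3.11.15, with matplotlib 3.10.9 for plots. log2 ratios have no pseudocount, and medians use a pseudocount of 1, which understates differences of low genes. The worth of 1 fragment was 0.0727, 0.0518 and 0.0523 FPKM for 1 kb in wild type, tw18/+ and tw18/tw18, from 221, 338 and 243 low values of genes with a single transcript, of which 83.3% to 86.7% lay within 0.2 of a whole number. Fragments of the members use GENCODE M21 exons clipped to the RefSeq gene, and the length used by Cuffdiff may differ. Simulated data were used to check the code of the calls and of the depth estimate. The changes planted for the calls were well past the threshold and held no counting error, so calls of small changes were not tested. The members and all lists were chosen with earlier results of these data known. All members were named, with the 4 largest increases and decreases of each list as the pool for other names. *Jund*, *Srf*, *Areg*, *Cxcl1*, *Il6*, *Fosl1*, *Atf7*, *Prl3d1* and the tissue markers listed at 0 were named as examples after their values were seen. *Fgf5* was named only as a gene of 2 lists and *Hand2* only as a gene that the paper names.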

Additional observations from a re-analysis of the deposited data

How the results depend on the processing

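Pseudocounts, filters, the threshold and the scaling were changed 1 at a time. Of the members, 3 passed in tw18/tw18 against wild type. The number was 5 with no filter, when *Fosb* and *Atf3* enter, 1 with an FPKM of at least 10 and 0 with a log2 threshold of 2. All these members were higher, and the share of all genes that were higher moved from 15.1% to 24.2%, 6.79% and 5.76%. In tw18/+ against wild type, 1 became 3, 0 and 0 under the same 3 alternatives. Of all genes 15.8%, 0.527% and 1.71% were then higher and 9.91%, 1.01% and 1.69% lower. In tw18/tw18 against tw18/+, 5 became 1 with an FPKM of at least 10 and 0 with a threshold of 2, where 7.27% and 4.75% of all genes were higher. The median difference of tw18/tw18 minus wild type, 0.43, was 0.99 with a pseudocount of 0.1. That of tw18/+ minus wild type, -0.04, was -0.19 as a mean, -0.069 after rescaling to equal FPKM sums and -0.074 after rescaling without *Lars2*, an alternative added after seeing the data. Rescaling raised each log2 ratio of tw18/tw18 to wild type by 0.21, or by 0.18 without *Lars2*, and *Jun* then passed at 1.14 or 1.11. *Fos* fell to 0.79 with a pseudocount of 1. *Ier3* changed sign with tw18/+ as the reference, at 0.067. No other direction changed among the 8 members with a ratio to wild type. *Atf3*, listed at 0 in wild type, was above it in tw18/tw18 and at -0.07 to tw18/+. No paired analysis was possible because each genotype has 1 library. Genes under about 100 fragments have wide counting intervals, and the variation between embryos is unknown.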
